A study of Rattus norvegicus with 11 samples.

Results

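The trigeminal ganglia of the uninjected side of 5 rats were described alone, gene by gene, without any comparison with the injected side. Each ganglion gave 1 array, and 5 of the 11 arrays analysed carry the contralateral label (rats 1, 2, 3, 5 and 6). The members were the probes with the accession of a protein-coding mRNA that were no control and that the scanner software marked as well above background on all 5 arrays, ranked by the mean log2 of the deposited quantile-normalised intensity, called the log2 signal here. Of 15321 mRNA probes 12542 (81.9%) were members, 1677 were well above background on 1 to 4 arrays and 1102 on none. A current gene symbol was found for 11744 members, and with the brightest probe standing for its gene they represented 11396 genes.

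The animals were male Wistar rats that had received 50 µl of complete Freund's adjuvant (CFA, killed mycobacteria in paraffin oil, 1 mg/ml) under the skin of the whisker pad on the other side of the face 7 days before. The contralateral ganglion is therefore the control side of an injected animal and not that of a naive rat. The rats were exsanguinated before excision, and RNA came from snap-frozen tissue, so every cell type of the ganglion, its blood and any tissue taken with it contributed, and fewer cells of a type cannot be told apart from less RNA per cell. The labels do not say more about what was dissected with the ganglion.

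Sensation from the face, mouth and meninges is carried by neurons whose somata lie in the trigeminal ganglion. Each soma is wrapped by satellite glial cells, its axon is ensheathed by Schwann cells, and many of the neurons are nociceptors that release the peptides CGRP and substance P. The central root of the ganglion enters the brainstem, where Schwann cell myelin gives way to the myelin of oligodendrocytes, and the ganglion lies in a dural pouch on the skull base, lateral to the pituitary gland.

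The arrays lay on 3 slides, with rats 1 and 2 on slide 3, rats 5 and 6 on slide 2 and rat 3 alone on slide 1. Between 71.6% and 82.8% of the spots that are no controls were well above background, no spot was saturated, and the median processed signal before normalisation ranged from 87.9 to 96.4. Since each rat is on 1 slide, slide and rat cannot be told apart, except within the pairs of rats 1 and 2 and of rats 5 and 6. A log2 signal depends on the probe as well as on the RNA, so the order below is one of probe signals, and neighbours in it were not compared. Values are always given in the order of rats 1, 2, 3, 5 and 6, and errors are SDs over these 5 ganglia (n = 5). No gene was tested between groups, as the 5 arrays are 1 group.

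The 25 genes with the highest log2 signal were those of axons and their filaments, of myelin and of general cell upkeep. Their means lay between 17.54 and 18.01, against a median of 10.90 over all member genes. Ctsb (NM_022597.2), the lysosomal protease cathepsin B, came first with 18.06, 18.06, 18.06, 17.95 and 17.93. Fth1, the heavy chain of the iron store ferritin, came second with 17.67, 17.69, 17.85, 17.93 and 18.06. The rats of slide 3 were lowest for Fth1 and those of slide 2 highest, while for Ctsb the order of these slides was the opposite.

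All 3 neurofilament subunits, which fill and widen large axons, were among the 25. Nefh, the heavy subunit, had 17.90, 17.86, 17.86, 17.74 and 17.72 (mean 17.82 ± 0.08), Nefl, the light one, a mean of 17.75 ± 0.06 and Nefm, the medium one, a mean of 17.73 ± 0.15. The ganglia of rats 5 and 6 held the 2 lowest values of Nefh and of Nefm, and the distance between highest and lowest was 1.13-fold for Nefh. Sncg, gamma-synuclein, an abundant protein of sensory axons, had 17.61, 17.59, 17.49, 18.06 and 17.90. Its SD of 0.24 was the largest of the 25, with rats 5 and 6 above the others. Other neuronal products of the 25 were Uchl1 (17.54 ± 0.13), the neuronal ubiquitin hydrolase, and Cplx1 (17.55 ± 0.12), which clamps synaptic vesicle fusion. Klc1 (17.67 ± 0.07), a light chain of the transport motor kinesin, and Gnas (17.79 ± 0.10), the stimulatory G protein, were also among the 25. Both left the 25 when the mean over all probes of a gene was used, and which cells their signal came from was not tested.

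Myelin was represented by Pmp22. Pmp22, a membrane protein of compact peripheral myelin, had 17.68, 17.77, 17.82, 17.75 and 17.83 (mean 17.77 ± 0.06). Scd2 (17.64 ± 0.13) is a desaturase that supplies fatty acids for membranes. The tubulins Tuba1a (17.77 ± 0.13), Tuba1b (17.57 ± 0.14) and Tubb4b (17.67 ± 0.13) and the tubulin-binding Tppp3 (17.64 ± 0.12) were joined by Myl6, Anxa2 and Ywhah. The ribosomal proteins Rpl38 and Fau and the cyclophilin Ppia (17.72 ± 0.11) were also among the 25. In the plot of these genes by rat, rat 3 often lies at an end of a line. It held the highest value of Tuba1b (17.81, against 17.49 to 17.52 in the others).

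**Figure D1:**
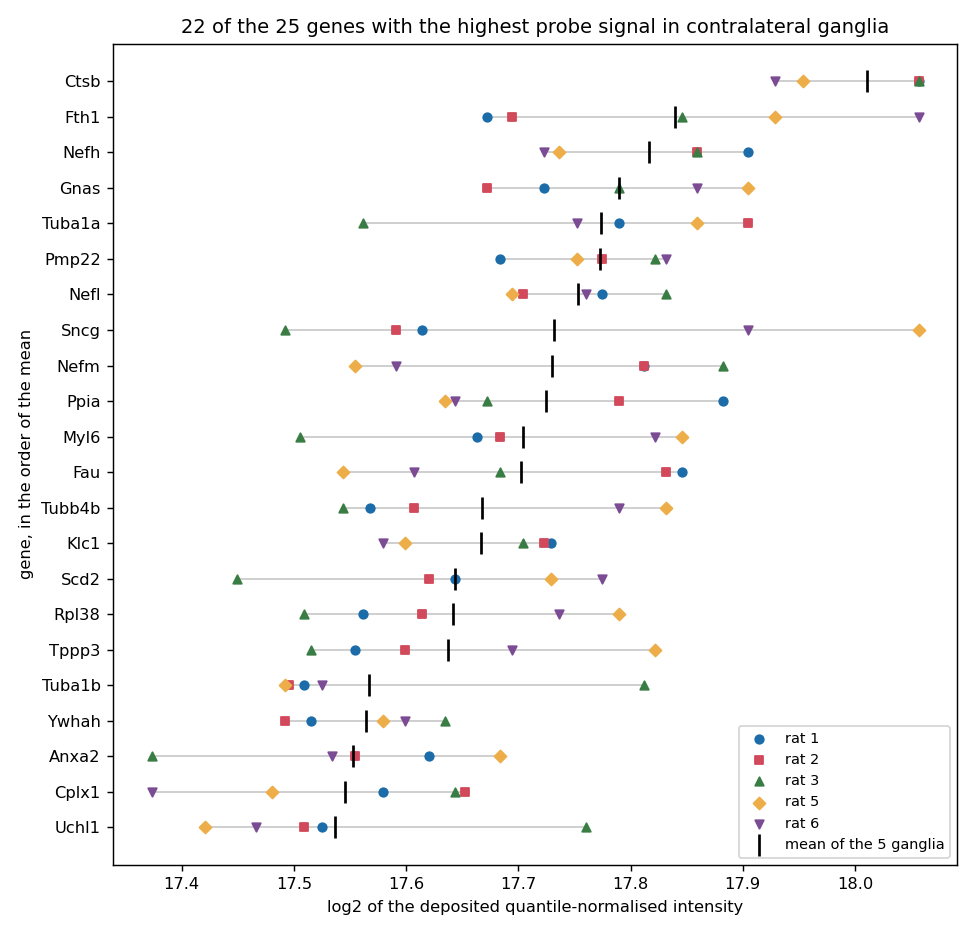
Of the 25 genes with the highest mean log2 signal, 22 (vertical axis, in order of the mean) and their log2 signal in each of the 5 contralateral ganglia (horizontal axis, log2 of the deposited intensity; points are rats, black ticks means, grey lines the range). The means lie between 17.54 and 18.01 and the SDs between 0.06 and 0.24.

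The spread of these 25 genes depended on the scaling. Quantile normalisation gives every array the same set of values, with the same highest value of 18.14, so a gene at the top has little room to differ. With each array divided by its 75th percentile and no quantile step, the SDs of the 25 ran from 0.27 to 0.47 with a median of 0.38, against 0.06 to 0.24 and a median of 0.12. Which genes were in the 25 depended less on it, since 23 of the 25 stayed under that scaling. Without rat 3, 21 stayed, and Cplx1, Tuba1b and Uchl1 were among those that left.

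Marker genes of sensory neurons were looked up next, and 15 of the 15 listed markers on the array were members. Of all mRNA probes 81.9% were members, and so were all 14 skeletal muscle genes on the array. Membership is therefore no check of the label trigeminal ganglion. Of the 15 markers 12 were among the high-signal genes (the 3798 of 11396 genes with means of at least 12.51). Prph, the intermediate filament peripherin of small sensory neurons, had 17.42, 17.39, 17.36, 17.51 and 17.38 (SD 0.06). Gap43, a growth cone protein, had a mean of 16.50 ± 0.10 and Ret, the receptor of the GDNF family, one of 15.86 ± 0.06. Drgx, a homeobox factor of nociceptive sensory neurons, had 15.09, 15.16, 14.84, 15.20 and 14.95. Isl1, a LIM homeobox factor of these neurons, was the most variable of the list with 8.80, 8.27, 7.42, 9.09 and 8.81, the lowest in rat 3.

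All 17 nociceptor genes on the array were members as well, beside 81.9% of all mRNA probes. Calca, which encodes CGRP, had 17.13, 17.23, 17.03, 17.40 and 17.26 (mean 17.21 ± 0.14), and Tac1, which encodes substance P, had 17.09, 17.22, 17.14, 17.19 and 17.10 (mean 17.15 ± 0.06). P2rx3, the ATP-gated channel of nociceptors, had a mean of 16.48 ± 0.07, and the sodium channel Scn11a one of 15.24 ± 0.07. Trpv1, the receptor of capsaicin and heat, had 12.62, 12.61, 12.65, 12.68 and 12.54, an SD of 0.05. Trpa1, the receptor of irritants, had 10.48, 10.77, 9.58, 10.43 and 10.45, with rat 3 apart from the rest. Oprm1, the mu opioid receptor, had 7.36, 6.99, 7.00, 7.67 and 9.45, and there it was rat 6 that lay apart. Over the 17 genes the median SD was 0.20, the same as the median of 0.20 over all member genes.

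Most genes of peripheral glia varied little, and 3 genes of the satellite glia list had an SD over 0.5. Of 19 Schwann cell and myelin genes that were members 16 had a high signal, with a median SD of 0.14. Mbp (17.44 ± 0.17), myelin basic protein, Cnp (16.74 ± 0.05), a phosphodiesterase of myelin, Prx (16.02 ± 0.08), periaxin, and Cldn19 (15.81 ± 0.07), a junction protein of Schwann cells, are examples. Of the satellite glia list, Fabp7 (14.16 ± 0.17), a fatty acid binding protein, Gja1 (13.85 ± 0.18), connexin 43, and Sox10 (15.15 ± 0.11), the transcription factor of the glial lineage, were steady. Apoe, apolipoprotein E, had 10.73, 13.51, 12.96, 12.76 and 13.44, with rat 1 below the other 4 by at least 2.04. Cdh19, a cadherin of the glial lineage, had a low signal of 4.78, 5.61, 3.01, 5.05 and 6.70, and Gfap is described with the central glia.

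Genes of general metabolism varied about as little as the high-signal genes in general, whose median SD was 0.11. The 73 cytosolic ribosomal proteins among the members had a median log2 signal of 16.81 and a median SD of 0.11, the 72 nuclear genes of the respiratory chain and ATP synthase 15.98 and 0.10, and the 37 proteasome subunits 15.26 and 0.10. Atp5f1b, the beta subunit of ATP synthase, for example had a mean of 17.21 ± 0.02, and Rpl8, of the large ribosomal subunit, one of 17.04 ± 0.03. Of the 6 14-3-3 proteins, phosphoserine-binding adaptors, 5 had an SD of 0.10 or less. Ywhaz, a frequent reference gene, was the exception with 15.00, 14.77, 13.77, 15.04 and 15.27. Rat 3 was again the one apart. With 75th percentile scaling the median SD of the 14-3-3 proteins was 0.27 and that of the ribosomal proteins 0.26, which was their highest value under any alternative tried.

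Among the high-signal genes, the smallest spread was that of Eef1b2, a subunit of the elongation factor that loads aminoacyl-tRNA. Eef1b2 had 16.42, 16.41, 16.43, 16.44 and 16.43, an SD of 0.01. Kcmf1, a ubiquitin ligase, followed with 14.52, 14.49, 14.50, 14.49 and 14.49. The next 6 were Dus3l, a tRNA dihydrouridine synthase, Ephx1, microsomal epoxide hydrolase, Fnta, the alpha subunit of farnesyltransferase, Me1, cytosolic malic enzyme, Map1lc3b, the autophagosome protein LC3B, and Arf2, a small GTPase of the Golgi, each with an SD of 0.02. For none of the 8 was the highest ganglion more than 1.03-fold above the lowest. Such small SDs are the lower tail of 3798 values, and each rests on 5 arrays.

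The spread between ganglia was larger where the signal was low. The median SD was 0.11 for the 3798 high-signal genes, 0.20 for the 3799 middle-signal genes (means from 8.77) and 0.36 for the 3799 low-signal genes. An SD over 0.5, chosen here to mark variable genes, was found for 45 high-signal genes (1.18%), 324 middle-signal genes (8.53%) and 1093 low-signal genes (28.8%). Over the 12542 member probes the median SD was 0.20 and 1648 probes (13.1%) had an SD over 0.5. With normexp background correction 579 probes had such an SD. For the 33 member probes with 10 spots the spread between spots could be set beside it. Between spots of 1 array their median SD was 0.13, against 0.29 between ganglia, and for 28 of the 33 the spread between ganglia was the larger. The spots were taken as processed signal before quantile normalisation, whereas each ganglion gave 1 normalised value per probe. These SDs are thus not fully alike, and that between ganglia also holds the spread between slides.

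**Figure D2:**
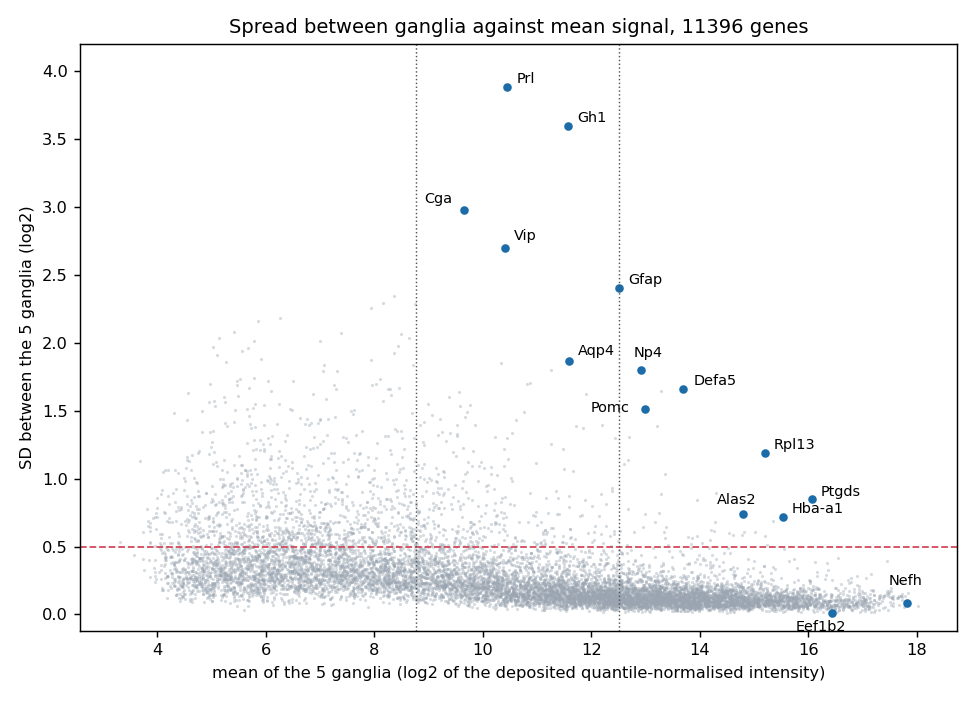
SD between the 5 contralateral ganglia (vertical axis, log2) against the mean log2 signal (horizontal axis) for 11396 genes, each a grey point; blue points are named genes, dotted lines divide the genes into low, middle and high signal and the dashed line is an SD of 0.5. The high-signal genes have a median of 0.11, whereas Prl, Gh1, Cga, Vip and Gfap stand far above genes of like signal.

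The most variable high-signal genes were those of neutrophil granules. Np4 (NM_173299.1), a neutrophil alpha-defensin, had 10.76, 14.11, 13.74, 11.23 and 14.77, an SD of 1.80 and a 16.0-fold distance between rats 6 and 1. Defa5, another alpha-defensin, had 11.79, 14.94, 14.64, 11.98 and 15.11, and RatNP-3b, of the same family, had 11.32, 14.56, 14.14, 11.67 and 14.71. In each case rats 2, 3 and 6 were high and rats 1 and 5 low, with no value between. These defensins are close relatives, so a probe of 1 of them may bind transcripts of the others, and their values are not separate evidence of the pattern.

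Genes of other sequence had the same pattern. S100a8, a calcium-binding alarmin of neutrophils, had 11.64, 14.28, 13.76, 11.81 and 14.57, and Camp, the cathelicidin of their specific granules, had 9.96, 13.33, 12.49, 10.40 and 13.34. In all, 7 of the 8 neutrophil genes among the members had their highest values in rats 2, 3 and 6, which was so under each of the 4 other scalings too, and the list's median SD was 1.47. Lcn2, lipocalin 2, was the mildest of those 7, with 10.55, 11.34, 11.42, 10.56 and 11.44. Mcpt8, a protease of basophils, resembled them with 11.20, 13.56, 12.62, 11.69 and 14.37. The difference was present within slides. Rat 2 exceeded rat 1 by 3.35 for Np4 and by 2.64 for S100a8, and rat 6 exceeded rat 5 by 3.53 and 2.76.

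Red blood cell genes were highest in rat 6. Hba-a1, an alpha-globin, had 15.58, 15.25, 14.69, 15.45 and 16.67, and Hba-a3, another member of the cluster, had 12.59, 12.92, 11.17, 12.11 and 14.20. Alas2, the first enzyme of haem synthesis in erythroid cells, had 14.72, 14.83, 14.15, 14.24 and 15.99. Ahsp, which binds free alpha-globin, had 13.66, 14.14, 13.46, 13.18 and 15.32, and Slc4a1, the anion exchanger of the red cell membrane, had 9.16, 9.27, 8.42, 9.15 and 11.49. Rat 6 was the highest for 7 of the 9 genes of the list under every scaling, and above rat 5 of the same slide by 1.21 for Hba-a1 and by 2.34 for Slc4a1. The beta-globins Hbb-b1 (17.45 ± 0.16) and Hbb (17.46 ± 0.15), near the top of the scale, were the 2 exceptions. How far the globin probes share signal was not tested.

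Another group was that of the central nervous system. Gfap, the intermediate filament of astrocytes, which satellite glia also make when activated, had 15.23, 10.97, 15.02, 10.29 and 11.04, an SD of 2.41 and a 30.7-fold distance between rats 1 and 5. Its mean of 12.51 placed it just below the high-signal genes. Aqp4, the water channel of astrocytes, had 13.41, 9.13, 13.48, 10.60 and 11.35. The oligodendrocyte genes were likewise highest in rats 1 and 3, while the order of the other rats differed between genes. Mobp, a protein of central myelin, had 11.38, 9.74, 11.75, 9.63 and 9.42, Mog, a glycoprotein on its surface, had 9.98, 7.06, 9.59, 6.71 and 6.44, and Olig1, a transcription factor of these cells, had 10.09, 7.76, 10.42, 7.92 and 8.41. Rats 1 and 3 were above the other 3 for each of these genes, and for 8 of the 10 members of the list. With 75th percentile scaling the count was 6 of 10. Neuronal genes of the list showed less. Gad1, which makes GABA, had 10.27, 9.39, 9.61, 9.66 and 9.44, and Slc17a7, a vesicular glutamate transporter, had 8.78, 8.39, 8.68, 8.68 and 8.23, while Gad2 and Gabra6 were not well above background on any array. Rats 1 and 2 shared a slide and differed by 4.26 for Gfap.

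The largest spread of all named genes was that of anterior pituitary hormones. Prl, prolactin, had 3.94, 11.82, 11.06, 11.06 and 14.37 (SD 3.89), and Gh1, growth hormone, had 5.80, 12.86, 12.46, 11.18 and 15.55 (SD 3.60). Cga, the alpha subunit shared by the glycoprotein hormones, had 5.09, 10.36, 9.82, 9.57 and 13.40, and Lhb, the beta subunit of luteinising hormone, had 8.70, 10.26, 11.07, 10.95 and 12.83. Rat 1 was the lowest and rat 6 the highest for each of these 4 genes. Pomc, the precursor of ACTH and of opioid and melanocortin peptides, departed from this with 11.15, 13.06, 14.64, 11.79 and 14.27, the highest in rat 3. Of 11 genes of the list on the array 7 were members. Pou1f1, the transcription factor of prolactin and growth hormone cells, was well above background on 4 arrays, and Fshb on 2. The part of pituitary tissue in these values was not tested.

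Vip, the neuropeptide vasoactive intestinal peptide, had 7.12, 12.67, 10.64, 8.27 and 13.34. Its SD of 2.70 was the largest of the 23 sensory neuropeptides and granule proteins, whose median SD was 0.21. Rats 6, 2 and 3 were above rats 5 and 1, as for the neutrophil genes, and rat 2 exceeded rat 1 of the same slide by 5.55. Npy, neuropeptide Y, had 11.71, 12.73, 12.48, 11.91 and 13.22, the same order of rats. Gal (12.99 ± 0.29), galanin, and Sst (14.63 ± 0.27), somatostatin, varied far less.

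**Figure D3:**
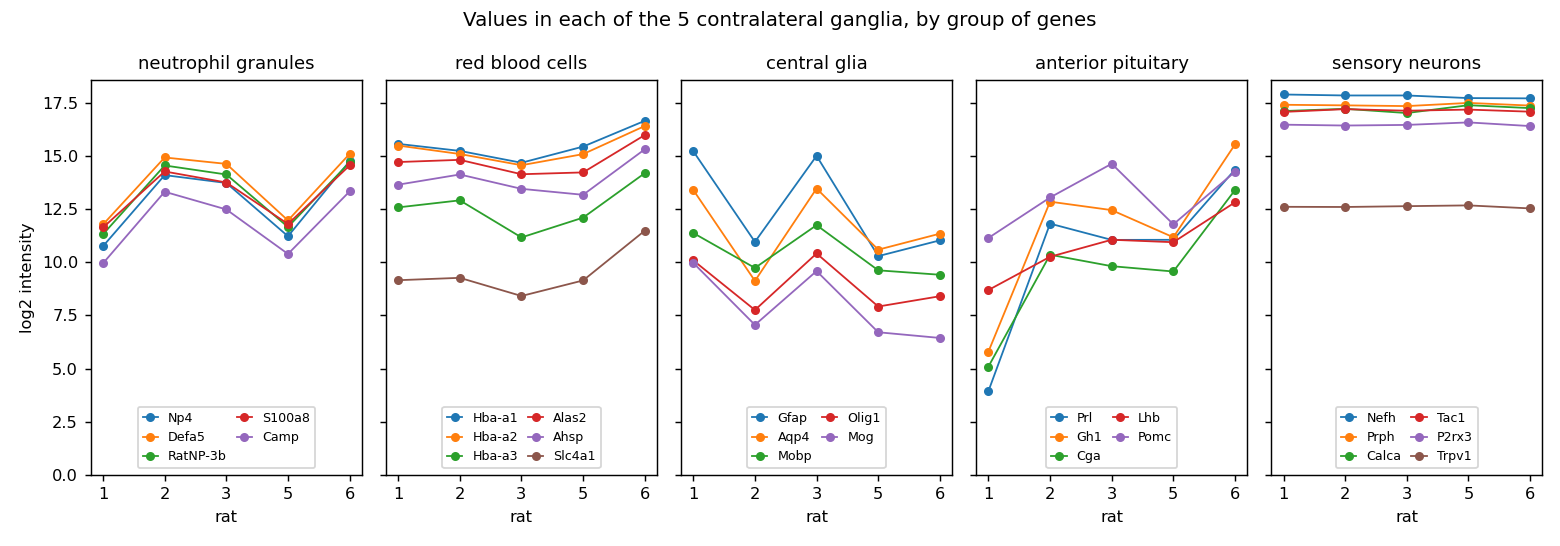
Log2 signal (vertical axis) in each contralateral ganglion (horizontal axis, rats 1, 2, 3, 5 and 6; lines join the values of 1 gene and carry no order) for genes of neutrophil granules, red blood cells, central glia, the anterior pituitary and sensory neurons. The neutrophil genes are high in rats 2, 3 and 6, the red blood cell genes in rat 6, the central glial genes in rats 1 and 3 and most pituitary genes in rat 6, while the sensory neuron genes are nearly level.

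Several other lists also differed from rat to rat. Mast cell genes, with a median SD of 0.70, were highest in rat 6 for 6 of 8 members and low in rat 3, and Cpa3, the mast cell carboxypeptidase, had 9.45, 9.78, 8.19, 9.77 and 10.95. Fibroblast and matrix genes lay above their own means in rat 6 by a median of 0.37 (0.25 with 75th percentile scaling). Postn, periostin, had 10.75, 11.03, 11.08, 10.86 and 12.25, and rat 6 was the highest for 10 of the 18 members. Interferon response genes lay above their own means in rat 5 by a median of 0.47, with rat 5 the highest for 13 of 18. Isg15, a ubiquitin-like modifier, had 12.29, 11.18, 11.14, 12.79 and 11.52, and Ifit3, an interferon-induced antiviral protein, had 8.88, 8.84, 8.46, 10.53 and 8.97. Sensory neuron markers as a list deviated by at most 0.06 in any rat, but by -0.33 in rat 2 and 0.31 in rat 3 with 75th percentile scaling.

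**Figure D4:**
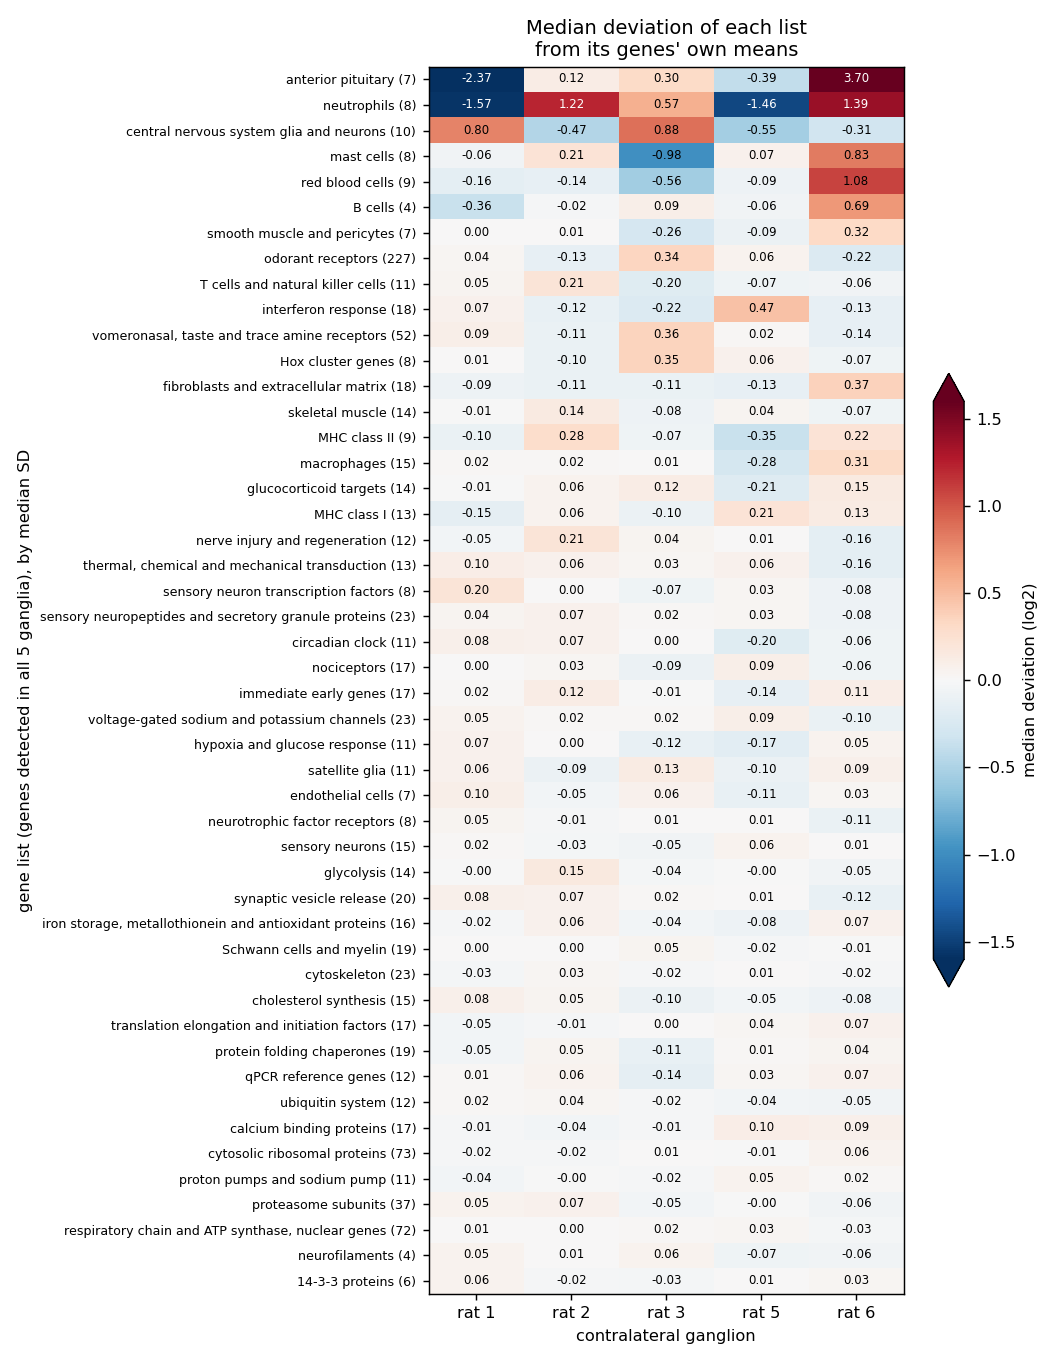
Median deviation of each gene list from its genes' own means (colour and printed value, log2; red above, blue below) in each of the 5 contralateral ganglia (columns), with lists ordered by their median SD and the number of member genes in brackets. The anterior pituitary, neutrophil, central nervous system, mast cell and red blood cell lists have the largest median SDs, and neurofilaments and 14-3-3 proteins the smallest. The median SD of the neurofilaments depended on the processing and ranged from 0.03 to 0.38 under the alternatives tried.

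How the sets of rats were distributed was counted over all genes. For 622 of 11396 genes (5.46%) the largest gap between neighbouring values of the 5 ganglia was at least 1, 18 of them high-signal and 156 middle-signal genes. Of these 174 genes, 15 had rats 2, 3 and 6 above the gap, 30 had rat 6 alone above it and 6 had rats 1 and 3. Rats 3, 5 and 6 were above the gap, and both rats of slide 3 below it, for 28 genes, and rat 3 alone, the only rat of slide 1, was below it for another 28. Those 6 were Gfap, Aqp4, Olig1, Mobp, S1pr5 and Slc7a11, and the last 2 were named after their values had been seen. The 15 included, beside the genes above, Rnase3 (9.50, 11.67, 11.72, 8.66 and 11.52), a ribonuclease of eosinophil granules, and Fcnb (9.09, 10.80, 10.66, 8.70 and 11.87), ficolin B of granulocytes, also named after their values had been seen. The rats above the gap were the same under all scalings for 163 of the 174.

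A part of the spread followed the slides. The arrays of rats 1 and 2, on slide 3, had a median absolute difference of 0.14 over the member probes and those of rats 5 and 6, on slide 2, one of 0.15, whereas the 8 pairs on different slides had 0.20 to 0.26. The slides were compared with the moderated F-test of limma over all mRNA probes. At an adjusted p of 0.05, 309 of 15321 probes (2.02%) differed between slides, 122 of them among the 12542 members (0.973% of these). Without adjustment 3463 probes (22.6%) had a p under 0.05, 2472 of them members (19.7%). Without rat 1, 2, 5 or 6 no probe passed the adjusted threshold (2333 to 3175 had an unadjusted p under 0.05), which leaves a single pair of arrays on 1 slide, and without rat 3, 514 did. With normexp background correction 8 probes passed.

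Rpl13, a protein of the large ribosomal subunit, was a high-signal gene of this kind. Rpl13 had 13.88, 13.93, 16.32, 15.88 and 15.99, so that both arrays of slide 3 lay below the rest by 1.94 or more while the rats of a slide differed by at most 0.12 (adjusted p = 0.0331 in limma). Rsph1, a radial spoke protein of cilia, behaved alike with 13.30, 13.42, 15.32, 14.78 and 14.71 (adjusted p = 0.0388 in limma). Scn9a, a sodium channel of nociceptors, had a low signal of 2.98, 3.88, 6.14, 5.77 and 5.41, again lowest on slide 3 (adjusted p = 0.117 in limma). In contrast, Np4 (adjusted p = 0.911), Gfap (0.418), Prl (0.607) and Hba-a1 (0.401) did not pass in limma, and each differed by more between some pair on 1 slide than Rpl13 did, a p that misses the threshold not being proof of equal slides. Of the 622 genes with a gap of 1 or more, 350 (56.3%) kept the rats of each slide together, 5 of the 18 high-signal and 284 of the 448 low-signal genes among them. Of the 30 possible sets of rats above the gap, 6 do so. These include genes where only rat 3, alone on slide 1, stood apart, above the gap for 17 genes and below it for 126. Such genes do not show that rats of a slide go together. By position, the first of 4 equal bands of array rows held 524 of the 1462 genes with an SD over 0.5 and the last 278.

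**Figure D5:**
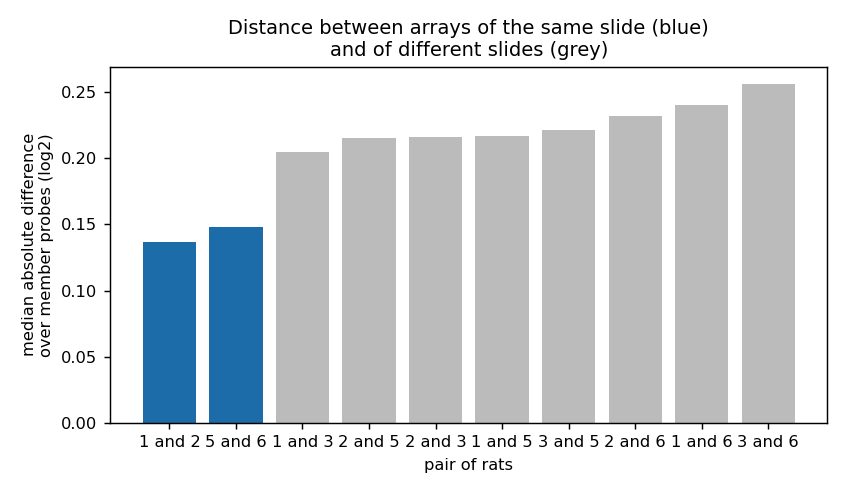
Median absolute difference in log2 signal over the 12542 member probes (bar height, log2) for each of the 10 pairs of contralateral arrays (horizontal axis, rats of the pair), with pairs of the same slide in blue and of different slides in grey. The 2 pairs on 1 slide, at 0.14 and 0.15, are below all 8 pairs on different slides.

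The sequences just before the transcription starts of genes that moved together are shown because several of them carry the same short element. Chosen in part for that element, they do not tell how often such genes carry it. They are the 60 bases upstream of the start in RefSeq on the GRCr8 assembly, 5′ to 3′ on the strand of the gene, and the probes themselves are not given by sequence in the files used. The globins of the alpha cluster follow first, Hba-a1 (chr10:15842581-15842640, minus strand), Hba-a2 (chr10:15829139-15829198, minus strand) and Hba-a3 (chr10:15816944-15817003, minus strand), with TATAAA in capitals.
Hba-a1: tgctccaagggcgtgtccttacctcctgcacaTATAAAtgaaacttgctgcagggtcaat
Hba-a2: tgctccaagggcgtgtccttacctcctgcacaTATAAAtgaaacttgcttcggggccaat
Hba-a3: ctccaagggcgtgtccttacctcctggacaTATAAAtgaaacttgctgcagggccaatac
Hba-a1 and Hba-a2 were equal at 57 of these 60 positions, and the first T of TATAAA lay 28 bases before the start in both. Of the hormone genes that were high in rat 6 or rat 3, Pomc (chr6:32659293-32659352, plus strand), Cga (chr5:54283280-54283339, plus strand) and Lhb (chr1:105037397-105037456, plus strand) are shown. They had TATAAA 32, 29 and 28 bases before the start. In Vip, whose bases are not shown, it lay 48 bases before the start. Prl and Gh1, the hormone genes of largest SD, are not shown, so these counts do not speak for the whole group.
Pomc: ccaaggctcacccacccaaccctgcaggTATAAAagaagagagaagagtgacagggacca
Cga: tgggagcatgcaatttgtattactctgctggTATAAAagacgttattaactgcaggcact
Lhb: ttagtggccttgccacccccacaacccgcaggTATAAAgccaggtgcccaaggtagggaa
The defensins Np4 (chr16:77199643-77199702, minus strand) and RatNP-3b (chr16:77248978-77249037, minus strand), which had the same order of rats, had no TATAAA, and the capitals mark the longest run that they share, of 13 bases. Both also include the run ttaaata.
Np4: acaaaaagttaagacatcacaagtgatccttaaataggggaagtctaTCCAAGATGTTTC
RatNP-3b: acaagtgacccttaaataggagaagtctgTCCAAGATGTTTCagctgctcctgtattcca
Steady genes differed among themselves. Prph (chr7:132097229-132097288, plus strand) and Ppia (chr14:85493156-85493215, plus strand) had TATAAA. Eef1b2 (chr9:72074031-72074090, plus strand), the steadiest high-signal gene, did not have that exact run of letters, although its bases include the similar tatataa.
Prph: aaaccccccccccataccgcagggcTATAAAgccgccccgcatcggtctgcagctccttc
Ppia: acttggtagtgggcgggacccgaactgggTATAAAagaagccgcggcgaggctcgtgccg
Eef1b2: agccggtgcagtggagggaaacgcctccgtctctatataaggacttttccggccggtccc

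TATAAA was counted in these 60 bases on the strand of the gene and, apart from that, on the other strand. Of 27457 promoters of the table, 1 per gene, 2.83% had it on the strand of the gene and 1.34% on the other. It was found for 5 of 36 genes (13.9%) of high signal with an SD over 0.5 and a promoter in the table, namely Pomc, Hba-a1, Hba-a2, Hba-a3 and Bglap, osteocalcin, against 67 of 3123 (2.15%) of the other high-signal genes. The globins among the 5 share their sequence. Of the 100 genes with the highest signal, 10 of 78 (12.8%) had it, among them Prph, Tubb2a, Rplp0 and the beta-globins. CpG dinucleotides in the 250 bases upstream had a median of 6.5 for the variable genes and of 17 for the other high-signal genes, and the median GC content was 57.0% and 60.8%. These are counts of letters in a fixed window and were not tested.

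At the lower end of the scale were genes of other sense organs and body regions. Of 806 odorant receptor genes on the array 227 were members, with none of high signal, with a median log2 signal of 5.98, and 350 were not well above background on any array. They had a median deviation of 0.34 in rat 3, the highest of the 5 for 132 of the 227 (0.64 with 75th percentile scaling and 0.10 with normexp). Olr1400 had 10.48, 10.08, 11.59, 9.78 and 9.10. Hox genes pattern the trunk and hindbrain and were mostly dim as well, with 8 of 16 among the members and a median of 6.36. Hoxd1 was alone among them in having a high signal, with 13.96, 13.90, 13.81, 13.89 and 14.04 (SD 0.08). Of 14 skeletal muscle genes, all members, the median was 6.42, and Pvalb, parvalbumin, a calcium buffer that large sensory neurons also express, had a mean of 16.50 ± 0.11.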

How the data were processed

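Contralateral ganglia of 5 male rats were measured on 1 single-colour array each. RNA had been depleted of ribosomal RNA, amplified with random primers and labelled with Cy3 per the labels. The authors deposited the intensity of every spot as written by Agilent Feature Extraction 11.0.1.1, with the background subtracted, and a table of linear intensity per probe that was quantile normalised with limma per the methods. Its median was 184.67 in every column. The sources do not state how it combines repeated spots.

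The log2 of that table was used for the 15321 mRNA probes, of 24684 that are no controls. A probe with several spots (38 with 10) counted as detected on an array when more of its non-outlier spots were marked well above background than not. Accessions were named through a RefSeq table of a later assembly (GRCr8), for names and promoters only, and 14274 mRNA probes were matched. Where a gene had several member probes (258 genes) the brightest was used, and for 80 of these genes the means of the probes were over 1 apart. Means, SDs and the largest gap between neighbouring values were taken over the 5 arrays with pandas 2.3.3 under Python 3.11.15, and figures drawn with matplotlib 3.10.9. The slide factor was tested with lmFit and eBayes of limma 3.58.1 under R 4.3.3, adjusted by Benjamini-Hochberg over all mRNA probes, after a check on simulated data. The ganglia came from separate rats with 1 array each, so the spread between animals and that between arrays are not separated.

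Named genes were the 25 of highest mean, up to 5 members of each list by mean and 3 by SD, and, among the high-signal genes, the 12 of largest and 8 of smallest SD. The members, the lists and the tests were chosen with earlier results of these data known. Alternatives were quantile normalisation of the processed signal over the 5 arrays, 75th percentile scaling, normexp background correction (offset 50, on the median signal because the files used hold no mean signal), repeated quantile normalisation of the deposited values, other detection rules, and leaving out each array. With 5 arrays, every SD is itself imprecise. Cldn19, Fabp7, Gja1, Prx, Rpl8, Slc17a7, Sst, Trpv1, Tubb2a and Bglap lie outside the rule and were named after their values had been seen. Some genes are not reported here.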

Additional observations from a re-analysis of the deposited data

Results flagged for a closer look

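In 18 of 332 named genes (5.42%) 1 ganglion lay far from the other 4 by Dixon's test at 95%. Chance alone flags about 1 in 20 groups that were not selected. Part of the named genes were chosen by their SD over these same ganglia, so their share cannot be compared with that rate. Of the 18, 16 are given here, and rat 3 was the ganglion apart for 6 of these. It was high for Hsp90aa1 (17.39, against 17.22 to 17.26 in the others), an inducible chaperone, for Tuba1b (17.81, against 17.49 to 17.52) and for the pheromone receptor Vom1r23 (8.07, against 7.33 to 7.53). It was low for Trpa1 (9.58, against 10.43 to 10.77), for the pheromone receptor Vom1r30 (6.54, against 7.64 to 8.09) and for Atp6v0b (3.34, against 4.93 to 5.06), a proton pump subunit.

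Rat 6 was apart and high for 4 genes. These were Oprm1 (9.45, against 6.99 to 7.67), Postn (12.25, against 10.75 to 11.08), Slc4a1 (11.49, against 8.42 to 9.27) and Prf1 (11.54, against 8.84 to 9.53), the perforin of cytotoxic lymphocytes. Rat 1 was low for Apoe (10.73, against 12.76 to 13.51) and high for the clock gene Bmal1 (12.74, against 12.53 to 12.59), the sensory neuron factor Pou4f3 (11.46, against 11.22 to 11.26) and Kcmf1 (14.52, against 14.49 to 14.50). Rat 5 was high for 2 interferon response genes, Ifit3 (10.53, against 8.46 to 8.97) and Gbp2 (13.20, against 12.53 to 12.68). The ranges of the others in Kcmf1 and Bmal1 are so narrow that a small distance sufficed.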

How the results depend on the processing

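The median SD over the member probes, 0.20, was 0.211 with quantile normalisation of the processed signal over the 5 arrays, 0.227 with 75th percentile scaling, 0.148 with normexp and 0.235 over all mRNA probes without the detection filter, and without 1 array it ranged from 0.181 to 0.202. The 1648 probes with an SD over 0.5 became 579 with normexp and 3203 without the filter, and 1350 to 1787 without 1 array. The 309 probes that differed between slides in limma became 8 with normexp, 180 with an intensity trend and 95 over member probes only (an alternative chosen after seeing the data), and 0 to 514 without 1 array (unadjusted p under 0.05 for 2333 to 3326). Of the 25 genes of highest signal 21 to 24 stayed without 1 array and 23 to 25 under the other settings. Detection in every ganglion ranged from 12549 to 13730 probes under other detection rules and from 12565 to 12873 without 1 array. Over the 332 named genes, the SD moved beyond its limit for 123 with 75th percentile scaling and 90 with normexp. An SD has no direction. Deviations of lists have one, and that of the sensory neuron markers in rat 3 went from -0.054 to 0.313 with 75th percentile scaling. No paired analysis was possible because the arrays of a single group were described and no groups were compared. Each ganglion gave 1 array, signals near background are the least certain, and slide and rat cannot be told apart beyond the pairs on 1 slide.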

Other observations

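A set of genes not on any list was high in rats 1, 3 and 5 and low in rats 2 and 6, and these genes were named after their values had been seen. Ptgds, the prostaglandin D synthase made by the meninges, had 16.25, 14.91, 16.97, 16.69 and 15.50. Gjb2, connexin 26, had 11.71, 8.47, 12.65, 11.56 and 9.70, and Gjb6, connexin 30, had 11.07, 7.64, 12.25, 11.43 and 9.30. Slc22a6, an organic anion transporter, had 10.29, 8.11, 11.45, 10.27 and 8.23. Rats 2 and 6 held the 2 lowest values of each, and both differed from a rat on their own slide, rat 2 from rat 1 and rat 6 from rat 5. Cldn11, a tight junction protein, had 13.79, 12.52, 14.24, 13.05 and 12.63, also lowest in rats 2 and 6. In contrast to the set, its value in rat 5 was nearer to those of rats 2 and 6 than to those of rats 1 and 3.

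Immediate early genes, which neurons induce on activity or injury, were mostly steady. Of 17 members 2 had an SD over 0.5, and the median SD was 0.20. Jun had 14.55, 14.77, 14.48, 14.49 and 14.26, and Atf3, a marker of axon injury, had 12.13, 12.65, 12.20, 11.85 and 11.92, the highest in rat 2 for both. Egr1 was the most variable, at a low signal, with 5.11, 3.91, 6.27, 6.32 and 6.15. Of 11 circadian clock genes Per1 varied most, with 7.38, 8.97, 6.83, 7.51 and 8.03, whereas Dbp, a clock output gene, had 13.89, 13.83, 13.90, 13.51 and 13.78.

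Of 16 macrophage genes on the array 15 were members, and Cd163, a scavenger receptor, was not well above background on any array. The members lay above their own means by a median of 0.31 in rat 6 and had a median deviation of -0.28 in rat 5. Lyz2, lysozyme, had 16.12, 16.28, 15.88, 15.89 and 16.64, and Csf1r, the receptor of macrophage growth factor, had 14.63, 14.34, 14.48, 14.13 and 14.48. Itgam, an integrin that neutrophils also carry, lay between 3.15 in rat 3 and 7.45 in rat 2 with an SD of 2.08, and was highest in rats 2 and 6. Cxcl10, an interferon-induced chemokine named after its values had been seen, had 10.67, 10.25, 10.43, 12.96 and 10.63, so that rat 5 was the highest, as for Ifit3. RT1-CE2, a class I gene of the major histocompatibility complex that was also named after its values had been seen, had 8.10, 10.54, 7.78, 10.19 and 10.36, high in rats 2, 5 and 6.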
